A study of Mus musculus with 10 samples.

Results

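The nuclear genes that build the mitochondrial ribosome and the respiratory chain were read for H3K4me3 in fully grown oocytes with and without *Setd1b*. They were chosen by name: every 5 kb window on chromosomes 1 to 19 whose annotated gene begins with Mrpl or Mrps followed by a digit, Nduf, Uqcr, Cox4, Cox5, Cox6, Cox7 or Atp5, and, for each gene, the window with the highest mean over the 6 H3K4me3 libraries. This gave 147 genes of the 24722 annotated genes on these chromosomes, from 540 windows that carry their names. Grouped by name prefix alone, they were 45 genes of the large and 29 of the small mitoribosomal subunit, 33 of complex I (NADH dehydrogenase) and 3 of its assembly factors, 8 of complex III (the cytochrome bc1 complex), 12 of complex IV (cytochrome c oxidase) and 17 of complex V (ATP synthase), with 2 pseudogenes (*Atp5l-ps1* and *Mrps36-ps1*) among them. A group can thus hold a gene whose product has another role, such as *Ndufa4* in complex I, described below.

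The mitochondrial genome encodes only a few subunits of the respiratory chain, and the mitoribosome exists to translate those few. All mitoribosomal proteins and most chain subunits are nuclear genes, transcribed in nearly every cell from CpG island promoters that carry H3K4me3, and the growing oocyte multiplies its mitochondria to supply the early embryo. SETD1B is a methyltransferase that writes H3K4me3, so that these genes allow the question of what its loss does at promoters that are in use throughout oocyte growth.

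H3K4me3 was profiled by ULI-nChIP-seq, a native ChIP for few cells, in germinal vesicle (GV) oocytes from C57BL6 mice at 21 days of age. The *Setd1b* cKO oocytes (N = 3, replicates 1, 3 and 4) carried floxed *Setd1b* on both alleles and a *Gdf9*-Cre transgene, which is active in oocytes from early folliculogenesis. The WT oocytes (N = 3, replicates 1, 2 and 4) are labelled as floxed on both alleles without the Cre, and the study's methods also allow heterozygous controls. Both genotypes had 2 input libraries (replicates 1 and 4), and each library was made from a pool of oocytes. The unit throughout is the authors' normalized RPKM, in which the 40th and 99th percentiles of all windows are set equal (1.23 and 6.77 normalized RPKM), so that a value is a place between background and strong enrichment and not an amount of H3K4me3.

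The libraries held 10856015 to 32775874 H3K4me3 reads in windows and 20756128 to 26566505 input reads. Replicate 1 of both genotypes was the most enriched, with 13.5 and 14.3 times as many reads at the 99th as at the 40th percentile, against 3.47 to 6.97 times in the other 4 libraries. At *Setd1b* itself the highest window fell from 8.34, 9.69 and 7.37 normalized RPKM in WT to 2.17, 3.21 and 3.25 in cKO (limma, adjusted p = 0.0124). The 10 oocyte markers had summed levels of 50.9 to 51.9 normalized RPKM in cKO and 58.2 to 64.1 in WT. Their median difference was −1.32 normalized RPKM, with 8 lower and 2 higher in cKO, and all 10 were lower on whole reads. At 6 of them the highest cKO value lay under the lowest WT value, as in 9.95% of all windows. The reverse held at none. With an intensity trend 2 of them were lost, as were 2.01% of all windows. The 10 granulosa markers had summed levels of 48.6 to 56.8 normalized RPKM in cKO and 44.8 to 48.2 in WT. Their median level was 5.38 normalized RPKM. Their median difference was +0.730 normalized RPKM, with 8 higher and 2 lower in cKO. The granulosa marker *Fshr*, the receptor of follicle-stimulating hormone, was near the background in WT, with 0.645 to 1.23 normalized RPKM. In cKO it had 0.747 to 3.21, so that not every cKO library was near the background. A window without reads has a value of −1.02 to 0.810, depending on the library, because of the normalization. Of these markers 1 granulosa marker gained H3K4me3 (*Foxl2*, a transcription factor of granulosa cells, limma, adjusted p = 0.0415). No marker of either list was lost in this fit, without an intensity trend. Of all windows, 0.563% gained and 0.454% lost. The part of these marker differences in the results below was not tested. The number of granulosa cells in the pools was not measured, and the part of such cells in the summed levels was not tested. The granulosa marker *Col4a1*, a basement membrane collagen, had 6.46, 8.04 and 6.59 normalized RPKM in WT.

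The promoters of 5 members are printed because their windows differed between the genotypes with little spread inside each, 2 of them past the test and 3, chosen after their values were seen, with no overlap of the libraries. Each line gives the 250 bases before the transcription start, 5′ to 3′ on the gene's strand, from RefSeq (GRCm38.p6), with every CpG in capitals, the dinucleotide whose density marks such promoters. All 5 lie inside the 5 kb window measured for the gene.
Mrpl43: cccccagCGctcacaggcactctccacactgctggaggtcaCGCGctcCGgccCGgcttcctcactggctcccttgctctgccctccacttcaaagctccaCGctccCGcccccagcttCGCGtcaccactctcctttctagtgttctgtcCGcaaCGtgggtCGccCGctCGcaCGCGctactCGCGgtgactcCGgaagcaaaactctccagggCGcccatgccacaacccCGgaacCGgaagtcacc
Mrpl36: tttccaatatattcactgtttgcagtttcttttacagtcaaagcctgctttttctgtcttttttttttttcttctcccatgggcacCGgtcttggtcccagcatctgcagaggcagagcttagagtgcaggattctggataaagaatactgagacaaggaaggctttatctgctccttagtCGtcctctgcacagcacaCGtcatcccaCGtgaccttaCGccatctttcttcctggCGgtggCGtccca
Ndufs5: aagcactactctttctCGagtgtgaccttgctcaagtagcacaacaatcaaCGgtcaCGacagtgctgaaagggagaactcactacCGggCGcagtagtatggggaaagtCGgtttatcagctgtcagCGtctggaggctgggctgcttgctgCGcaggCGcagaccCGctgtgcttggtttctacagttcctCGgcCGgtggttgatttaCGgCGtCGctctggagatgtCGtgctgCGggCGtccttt
Atp5g3: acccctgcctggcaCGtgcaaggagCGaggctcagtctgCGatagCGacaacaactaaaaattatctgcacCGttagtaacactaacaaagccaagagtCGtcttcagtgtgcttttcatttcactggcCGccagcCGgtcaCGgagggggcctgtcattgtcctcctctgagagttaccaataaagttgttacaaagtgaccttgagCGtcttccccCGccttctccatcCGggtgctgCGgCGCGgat
Atp5e: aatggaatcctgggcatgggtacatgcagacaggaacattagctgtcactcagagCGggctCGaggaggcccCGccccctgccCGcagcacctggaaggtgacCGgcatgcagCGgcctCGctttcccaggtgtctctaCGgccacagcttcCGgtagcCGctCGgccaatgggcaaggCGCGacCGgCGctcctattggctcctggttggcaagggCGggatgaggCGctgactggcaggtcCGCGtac

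The promoter of *Mrpl43* (chr19:45006443-45006692, minus strand) holds 22 CpGs, that of *Mrpl36* (chr13:73330759-73331008, plus strand) 7, that of *Ndufs5* (chr4:123718187-123718436, minus strand) 18, that of *Atp5g3* (chr2:73911327-73911576, minus strand) 15 and that of *Atp5e* (chr2:174464102-174464351, minus strand) 19. Both *Mrpl43* and *Atp5e*, whose means were lower in cKO, have more CpGs here than *Mrpl36*, *Ndufs5* and *Atp5g3*, whose means were higher, a comparison of 5 chosen promoters with no test. Over the RefSeq promoters of 300 bases (250 before and 50 after the start), the median was 20 CpGs in 135 promoters of 124 members, against 13 in 21263 promoters of all protein-coding genes.

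The level of the genes, each read at its highest window, was near that of other genes read the same way. Their median was 4.39 normalized RPKM, against 4.13 for the highest windows of the 24575 other annotated genes and 1.51 for all 544879 windows, and 80 of the 147 lay above the 90th percentile of all windows (4.25 normalized RPKM) and 8 above the 99th of the window means (6.38 normalized RPKM). The level ranged from 0.914 normalized RPKM at *Ndufb2* to 9.08 at *Uqcrq*. Levels under 2 normalized RPKM were found at 18 genes, which goes against the description of these windows as constitutively active promoters. Each window carries the name of only 1 gene, and for 31 members the window measured holds no transcription start of the gene's own; 12 of the 18 genes with a low level were among these 31. *Ndufa3*, for example, had 1.13 normalized RPKM in the window with its name, while the window with its gene start is named for the neighbour *Oscar* and had 2.81 ± 0.599 in cKO and 3.20 ± 0.456 in WT (SD, n = 3). The window of *Ndufb2* does hold a start of that gene, but its start farthest upstream lies in a window named for the neighbour *Adck2*, which had 3.04 ± 1.03 in cKO and 3.78 ± 0.427 in WT (SD, n = 3). The level was used to choose the windows and is given as a description only.

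**Figure D1:**
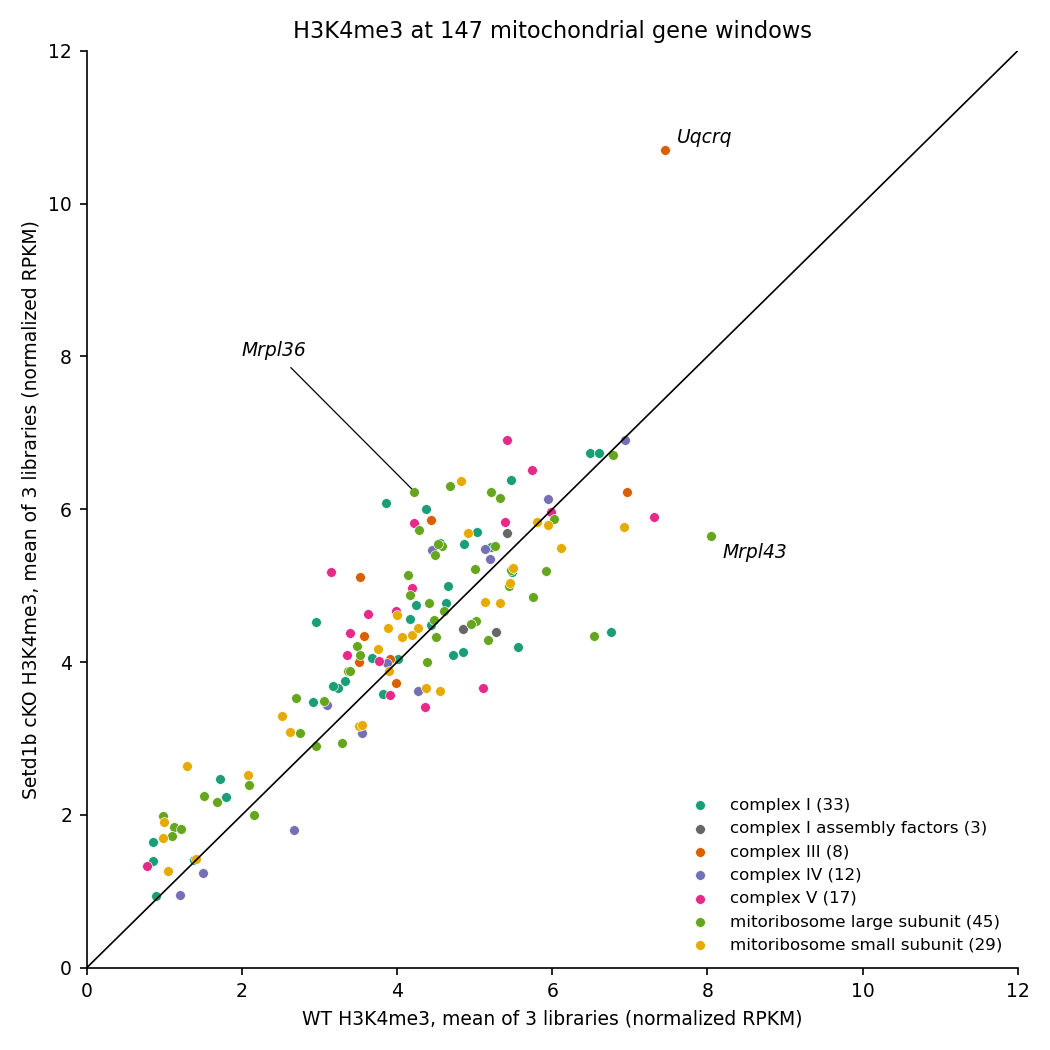
H3K4me3 of each of the 147 genes in WT (x axis) and *Setd1b* cKO (y axis), each the mean of 3 libraries in normalized RPKM, coloured by complex; the line marks equal values. Most genes lie close to the line between 3 and 7 normalized RPKM, *Uqcrq* stands apart at 10.7 in cKO and 7.46 in WT, and a low cluster under 2 holds mainly genes whose own start is in another window.

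Between cKO and WT, 1 of the 147 windows gained H3K4me3 (*Mrpl36*) and 1 lost it (*Mrpl43*) at an adjusted p under 0.05 (limma, adjusted over all windows). Of all windows, 0.563% gained and 0.454% lost, a share close to that of the members, and of the highest windows of the 24575 other annotated genes 1.22% gained and 1.14% lost. At an unadjusted p under 0.05, 20 members were higher and 7 lower in cKO, which is 13.6% and 4.76% of them. Over these other genes, 13.4% were higher and 11.5% lower at that limit.

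The median difference over the 147 genes was +0.295 normalized RPKM in cKO on the authors' scale and 98 of them were higher in cKO, but on whole reads scaled to the library (edgeR, TMM) the median was −0.076 on the log2 scale and 62 were higher. On whole reads edgeR called none of the 147, with 6 at an unadjusted p under 0.05, where it called 1.07% of all windows tested as gained and 1.22% as lost. The other annotated genes moved with the scaling as well, from a median of +0.0233 normalized RPKM to −0.11 on the log2 scale. Relative to these other genes, the members were higher by 0.271 normalized RPKM and by 0.035 on the log2 scale. By library, the median over the members was 4.50, 4.40 and 4.41 normalized RPKM in cKO and 4.37, 4.34 and 4.08 in WT, with WT replicate 4 the lowest. Over the other annotated genes it was 4.17, 4.002 and 4.12 in cKO and 4.002, 3.86 and 3.99 in WT. In neither set did the median of a WT library lie above that of a cKO library. Taken gene by gene over the other annotated genes, cKO replicate 3 was lower than each WT library. The median differences were −0.152, −0.0347 and −0.109 normalized RPKM against WT replicates 1, 2 and 4. So was cKO replicate 4 against WT replicate 1 (−0.0318), and the remaining pairs were higher. Without WT replicate 4 the median difference over the members was 0.139 normalized RPKM, and 0.0260 over the other genes.

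At part of the genes the libraries of cKO and WT did not overlap. Every cKO library was above every WT library at 26 genes (17.7%) and below at 6 (4.08%), where 9.88% of all windows were above and 9.95% below. Over the other annotated genes 13.5% were above and 10.7% below. The 26 included 10 genes of the large mitoribosomal subunit, 6 of complex I, 5 of complex V, 3 of the small subunit and 2 of complex III, and none of complex IV. In the most enriched pair, cKO replicate 1 against WT replicate 1, the median difference was 0.108 normalized RPKM over the members and 0.0460 over the other genes, with 82 of the 147 higher in cKO, a pair of libraries with no test. The pair with the largest median was cKO replicate 3 against WT replicate 4, with 0.440 normalized RPKM.

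Over the other annotated genes the median difference was higher in windows with many CpGs than in windows with few. The members' windows held a median of 94 CpGs, against 66 for the other annotated genes. Under 50 CpGs the median difference was 0.0495 normalized RPKM for 17 members and −0.210 for 8800 other genes. From 50 to 74 CpGs it was 0.267 for 18 members and 0.103 for 5039 other genes, and from 75 to 99 CpGs 0.315 for 56 members and 0.248 for 3494 other genes. From 100 to 124 CpGs it was 0.442 for 29 members and 0.229 for 2577 other genes, and at 125 CpGs and over 0.347 for 27 members and 0.303 for 4665 other genes. The members' median was above that of the other genes in each of these classes, on the authors' scale and with no test, and the part of the CpG count in the differences was not tested. Over the 147 members, which share the 6 libraries, CpG count and difference had a Spearman rho of 0.119, and CpG count and level a rho of 0.413.

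**Figure D2:**
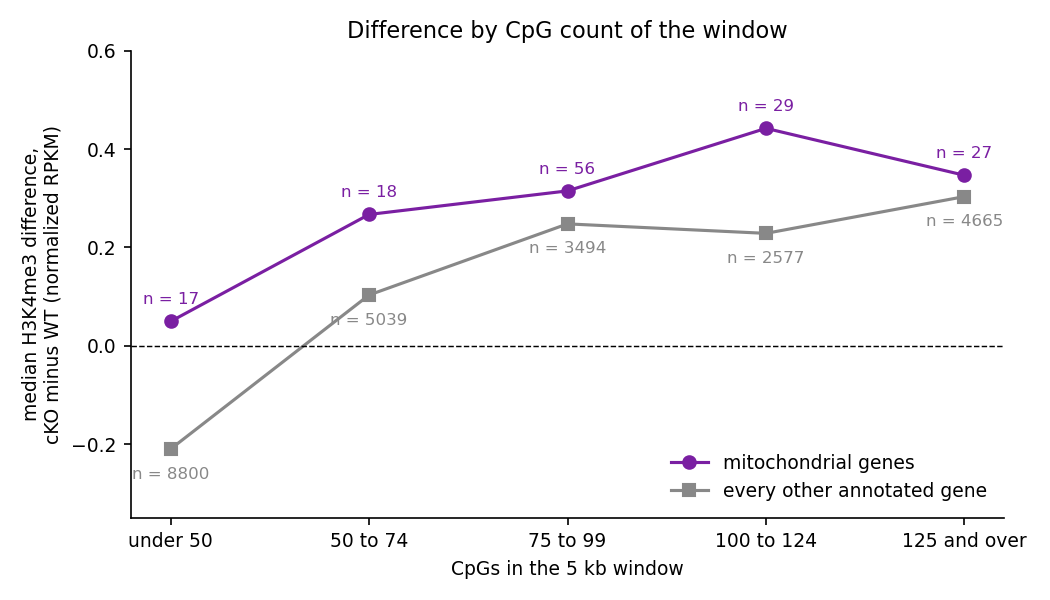
Median difference in H3K4me3 (cKO minus WT, normalized RPKM, y axis) by the number of CpGs in the 5 kb window (x axis), for the 147 mitochondrial genes (circles) and every other annotated gene (squares), with the number of genes at each point. From 50 CpGs upward both medians are above 0, and the line of the mitochondrial genes is the upper line throughout; on whole reads the medians over all members and over all other genes were below 0.

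The mitoribosome of mammals is made of a large subunit, which forms the peptide bonds, and a small subunit, which reads the mRNA. The large subunit held both called windows. Its 45 genes had a median difference of +0.370 normalized RPKM (−0.023 on the log2 scale of whole reads), with 29 higher in cKO. At an unadjusted p under 0.05, 6 were higher and 2 lower, the called windows included. The 29 small subunit genes had a median of +0.166 normalized RPKM (−0.14 on the log2 scale of whole reads), with 17 higher, none called by limma or edgeR and 2 higher at an unadjusted p under 0.05.

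*Mrpl36*, a homologue of a bacterial large subunit protein, was the only member that gained H3K4me3 in the fit without an intensity trend. Its window (chr13:73330001-73335000) had 6.39, 6.64 and 5.67 normalized RPKM in cKO and 4.11, 4.34 and 4.23 in WT. Every cKO library was above every WT library, and the values of WT lay close together. The difference was +2.01 ± 0.368 normalized RPKM (SE, limma, adjusted p = 0.0400), and adjusted p = 0.0838 with an intensity trend. With each library left out in turn the adjusted p was 0.0401 to 0.153. The window rests on 101, 58 and 132 reads in cKO and 63, 45 and 131 reads in WT, and on whole reads the difference was 0.40 on the log2 scale (edgeR, adjusted p = 0.791). The input of the 2 called windows differed in the same direction as their H3K4me3. At *Mrpl36* it was 2.13 and 2.80 in cKO and 1.68 and 2.28 in WT (reads per window scaled to the library), overlapping, with a ratio of 1.25 where the members had a median ratio of 1.03. This window holds a start of *Mrpl36*, and the start farthest upstream lies in the next window, named for *Ndufs6*, a complex I subunit transcribed the opposite way. The next window had 4.57 ± 1.13 normalized RPKM in cKO and 4.17 ± 0.271 in WT (SD, n = 3), with overlapping libraries.

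*Mrpl43*, a protein of the large subunit particular to mitochondria, was the only member that lost H3K4me3. Its window (chr19:45005001-45010000) had 5.44, 5.72 and 5.81 normalized RPKM in cKO and 7.93, 8.91 and 7.28 in WT. Here all cKO libraries were below all WT libraries, and it was the highest of the mitoribosomal genes, with 193 CpGs. The difference was −2.38 ± 0.439 normalized RPKM (SE, limma, adjusted p = 0.0405), and adjusted p = 0.0159 with an intensity trend. With each library left out in turn the adjusted p was 0.0431 to 0.129. On whole reads it was −0.78 on the log2 scale (edgeR, adjusted p = 0.603). The input of this window was 1.57 and 1.52 in cKO and 2.02 and 1.85 in WT, a ratio of 0.798, and its part in the difference was not tested. The same window holds a start of *Twnk*, the helicase that unwinds mitochondrial DNA, which overlaps *Mrpl43* and is transcribed the opposite way, so that the loss cannot be assigned to either promoter.

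*Mrpl33*, another homologue of a bacterial large subunit protein, had 4.83, 2.68 and 5.52 normalized RPKM in cKO and 6.20, 7.07 and 6.35 in WT. No library of cKO reached the lowest of WT, but the cKO libraries lay far apart and the difference of −2.19 ± 0.644 was not called (SE, limma, adjusted p = 0.137). At the window of its gene start *Mrpl33* had 3.74 ± 1.78 normalized RPKM in cKO and 3.58 ± 0.556 in WT (SD, n = 3), which overlap and differ in the opposite direction. *Mrps22*, the small subunit gene with the highest level, had 4.50, 7.17 and 5.62 normalized RPKM in cKO and 6.51, 7.75 and 6.53 in WT, which overlap (adjusted p = 0.436). At the low end, *Mrpl44* had 1.73 ± 0.431 normalized RPKM in cKO and 1.10 ± 0.0979 in WT, in a window without its own start. At the window of its gene start the values were 2.97 ± 0.508 and 2.99 ± 0.435 (SD, n = 3). The pseudogene *Mrps36-ps1* had 1.27 ± 0.231 normalized RPKM in cKO and 1.04 ± 0.252 in WT, and reads of such copies are uncertain because their sequence can be shared with the parent gene.

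Complex I takes electrons from NADH and is the largest assembly of the chain. Of its 33 genes 27 were higher in cKO on the authors' scale, with a median difference of +0.399 normalized RPKM (interquartile range 0.0495 to 0.674), and 15 on whole reads (median −0.029 on the log2 scale). None was called by limma or edgeR, and 5 were higher and 2 lower at an unadjusted p under 0.05. *Ndufs5*, an accessory subunit, had 4.45, 4.53 and 4.60 normalized RPKM in cKO and 3.01, 3.17 and 2.70 in WT. The 3 cKO values were almost equal and all above WT, and the difference was +1.57 ± 0.329 (SE, limma, adjusted p = 0.0570). The next window upstream of *Ndufs5*, which carries no gene name, went the other way and lost H3K4me3, from 4.05 ± 0.205 normalized RPKM in WT to 1.22 ± 0.489 in cKO (SD, n = 3).

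*Ndufa5*, an accessory subunit of the matrix arm, had the largest increase of complex I. Its values were 5.11, 6.64 and 6.48 normalized RPKM in cKO and 4.26, 2.98 and 4.35 in WT. The libraries did not overlap, and the difference was +2.22 ± 0.519 (SE, limma, adjusted p = 0.0762). *Ndufs8*, which carries iron-sulfur clusters of the electron path, had 5.39, 7.30 and 5.33 normalized RPKM in cKO and 4.47, 4.15 and 4.50 in WT (adjusted p = 0.167), again without overlap. *Ndufab1*, the mitochondrial acyl carrier protein, had 5.39, 2.42 and 5.38 normalized RPKM in cKO and 5.41, 7.84 and 7.01 in WT. This was the largest decrease of complex I at −2.36, but replicate 1 was nearly the same in both genotypes and the adjusted p was 0.208 (limma). *Ndufc2*, the highest of the complex, had 6.74 ± 1.66 normalized RPKM in cKO and 6.60 ± 0.120 in WT (SD, n = 3).

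The 3 assembly factors, which help to build complex I and are not part of it, were *Ndufaf1*, *Ndufaf2* and *Ndufaf4*. Their differences were −0.87, −0.42 and +0.28 normalized RPKM, all 3 were lower on whole reads (median −0.32 on the log2 scale), and none was called by limma or edgeR. *Ndufaf2* and *Ndufaf4* were measured in windows without a start of their own. At the windows of their gene starts *Ndufaf2* had 4.92 ± 0.896 normalized RPKM in cKO and 3.67 ± 0.699 in WT, and *Ndufaf4* had 4.87 ± 0.860 and 5.45 ± 0.532 (SD, n = 3), so that the sign of each changed with the window.

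**Figure D3:**
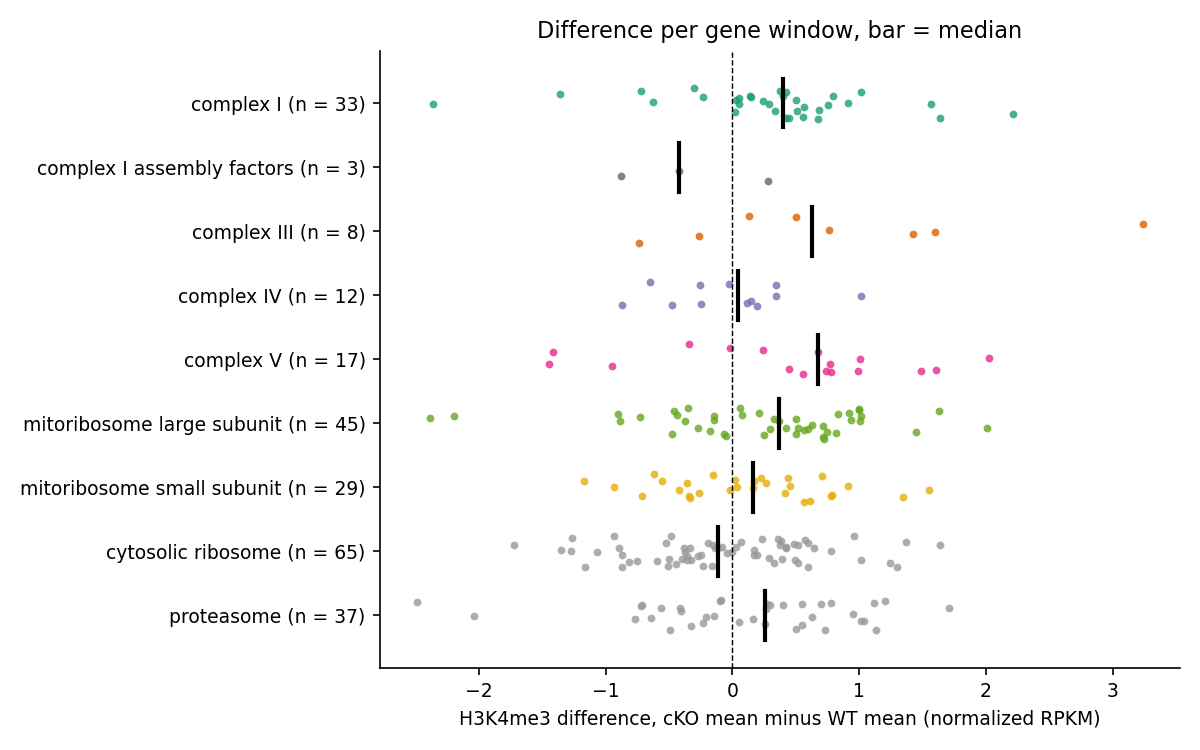
Difference in H3K4me3 of each gene window (x axis, cKO mean minus WT mean, normalized RPKM) by complex, with the cytosolic ribosome and the proteasome below; each point is 1 gene and each bar the median of its group. The medians of complexes I, III and V and the large subunit lie between 0.370 and 0.673 with wide spread inside each group; on whole reads the median of complex III alone among these stays above 0 (0.10 on the log2 scale).

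Complex III passes electrons from ubiquinol to cytochrome c. Of its 8 genes 6 were higher in cKO, with a median difference of +0.629 normalized RPKM (0.10 on the log2 scale of whole reads), and 3 were higher at an unadjusted p under 0.05. *Uqcrq*, its ubiquinone-binding protein, was the highest of all members and the sixth highest of all windows by the mean over the 6 libraries. It had 9.99, 12.6 and 9.52 normalized RPKM in cKO and 7.30, 7.94 and 7.13 in WT. The genotypes did not overlap, and in cKO replicate 3 no window of the genome was higher. The difference was +3.24 ± 0.693 normalized RPKM (SE, limma), with an adjusted p of 0.0598 without an intensity trend and of 0.000259 with it, the only increase among the members called with the trend (1.57% of all windows gained and 2.01% lost with it). On whole reads the difference was 0.24 on the log2 scale (edgeR, adjusted p = 0.905).

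The window of *Uqcrq* (chr11:53430001-53435000) also holds a start of *Gdf9*, the oocyte growth factor whose promoter drives the Cre transgene of the cKO. Its input was 3.42 and 3.00 in cKO (74 and 77 reads) and 2.17 and 1.85 in WT (44 and 48 reads), a ratio of 1.60. Such a ratio or a higher one was found in 0.456% of the 471032 windows with an input of at least 1, and in 2 of the 147 members. Both cKO inputs were thus above both WT inputs, as in 16.1% of those windows, and extra copies of the *Gdf9* promoter in the cKO genome would map here. The part of this coverage in the H3K4me3 difference was not tested, and cKO replicate 3 has no input. The mean H3K4me3 of the 3 libraries divided by the mean of the 2 inputs was 3.33 in cKO and 3.71 in WT. The H3K4me3 and input values are on different scales, and the H3K4me3 value of a window without reads runs from −1.02 to 0.810 between libraries. No direction is therefore read from this ratio, which has no test and was taken at no other member. In the next window, named for *Gdf9*, H3K4me3 was 7.09 ± 1.27 normalized RPKM in cKO and 5.62 ± 0.512 in WT (SD, n = 3), with overlapping libraries, and the input ratio was 1.20. *Uqcrc1*, a core protein of the complex and its lowest member, had 4.00 ± 0.681 normalized RPKM in cKO and 3.51 ± 0.384 in WT.

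Complex IV reduces oxygen to water, and several of its subunits exist as a widely used and a tissue-restricted isoform. Its 12 genes were evenly split, 6 higher and 6 lower, with a median difference of +0.0432 normalized RPKM (−0.18 on the log2 scale of whole reads), none called by limma or edgeR and none at an unadjusted p under 0.05. Its highest member, *Cox6b1*, had 8.11, 5.32 and 7.30 normalized RPKM in cKO and 7.61, 6.29 and 6.92 in WT. These overlap, and the difference was −0.031 ± 0.653 (SE, limma, adjusted p = 0.986).

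At the window of the gene start, *Cox4i2* and *Cox7a2l* of complex IV were called. Over the 147 genes, 51 had their gene start in another window than the one chosen by level. At the start windows 1 gene gained and 2 lost H3K4me3 (limma), and 3 gained and 2 lost with an intensity trend. Of all windows, 0.563% gained and 0.454% lost without the trend, and 1.57% and 2.01% with it. The start windows of other genes were not counted. The median difference at the members' start windows was +0.264 normalized RPKM (−0.092 on the log2 scale of whole reads). *Cox4i2*, the isoform of lung and of hypoxic cells, gained H3K4me3. Its start window (chr2:152750001-152755000) had 3.45, 3.08 and 4.46 normalized RPKM in cKO and 1.70, 0.937 and 1.50 in WT. All cKO libraries were above all WT libraries, by +2.28 ± 0.433 (SE, limma, adjusted p = 0.0438). It was also called on whole reads (48, 31 and 107 reads in cKO, 17, 10 and 40 in WT), with a log2 fold of 1.48 (edgeR, adjusted p = 0.00263), and with each library left out limma's adjusted p was 0.0375 to 0.155. In the window chosen by level, which holds no start of *Cox4i2*, the libraries overlapped at 6.14 ± 1.71 normalized RPKM in cKO and 5.94 ± 0.965 in WT (SD, n = 3).

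*Cox7a2l*, a factor that joins complexes III and IV into supercomplexes, went the other way. Its start window (chr17:83515001-83520000), which carries no gene name, had 3.67, 2.15 and 3.69 normalized RPKM in cKO and 6.51, 5.70 and 8.09 in WT. The loss was −3.60 ± 0.628 (SE, limma, adjusted p = 0.0357), with no overlap of the libraries, and −1.27 on the log2 scale of whole reads (edgeR, adjusted p = 0.207). The other loss at a start window was *Mrpl43*, whose start lies in the window described above, and *Mrpl36* is read there in the window named for *Ndufs6* and was not called.

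Among the isoform pairs, the restricted isoforms *Cox4i2* and *Cox7a1* (heart and skeletal muscle) were higher in every cKO library than in every WT library, and their partners were not. *Cox7a1* had 2.89, 4.40 and 3.98 normalized RPKM at its start window in cKO and 2.22, 1.52 and 1.83 in WT, without overlap (limma, adjusted p = 0.0747, and 0.0328 with an intensity trend). On whole reads this was 0.87 on the log2 scale (edgeR, adjusted p = 0.181). The window that carries the name of *Cox7a1* had 0.954 ± 0.466 normalized RPKM in cKO and 1.20 ± 0.617 in WT (SD, n = 3), with overlapping libraries and the opposite sign. *Cox4i1*, the widely used partner of *Cox4i2*, names no window of its own and had 4.67, 4.40 and 4.60 normalized RPKM in cKO and 6.93, 7.16 and 5.67 in WT at its start. *Cox7a2*, the partner of *Cox7a1*, had 3.44 ± 0.451 in cKO and 3.10 ± 0.320 in WT (SD, n = 3). The difference between partners was not tested.

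The other restricted isoforms had overlapping libraries. *Cox6b2* of testis had 3.07 ± 0.374 normalized RPKM in cKO and 3.55 ± 0.523 in WT, beside *Cox6b1* above. *Cox6a2*, which names no window, had 2.62 ± 0.355 and 2.52 ± 0.485 at its start, beside 3.99 ± 0.449 and 3.87 ± 0.159 for *Cox6a1*. *Cox7b2* had 1.07 ± 0.615 and 1.09 ± 0.176 at its start (SD, n = 3), the lowest means of the 11 isoforms compared. *Ndufa4l2*, induced by hypoxia, had 6.73 ± 0.675 and 6.49 ± 0.889, above its partner *Ndufa4* (a subunit named for complex I and since assigned to complex IV) with 4.77 ± 0.592 and 4.63 ± 0.313. The start of *Ndufa4l2* lies close to the end of its window, and the next window, which the gene runs into and which also carries its name, fell from 6.67, 6.97 and 7.34 normalized RPKM in WT to 4.89, 2.42 and 4.17 in cKO (limma, adjusted p = 0.0385). On whole reads this was −0.98 on the log2 scale (edgeR, adjusted p = 0.429).

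**Figure D4:**
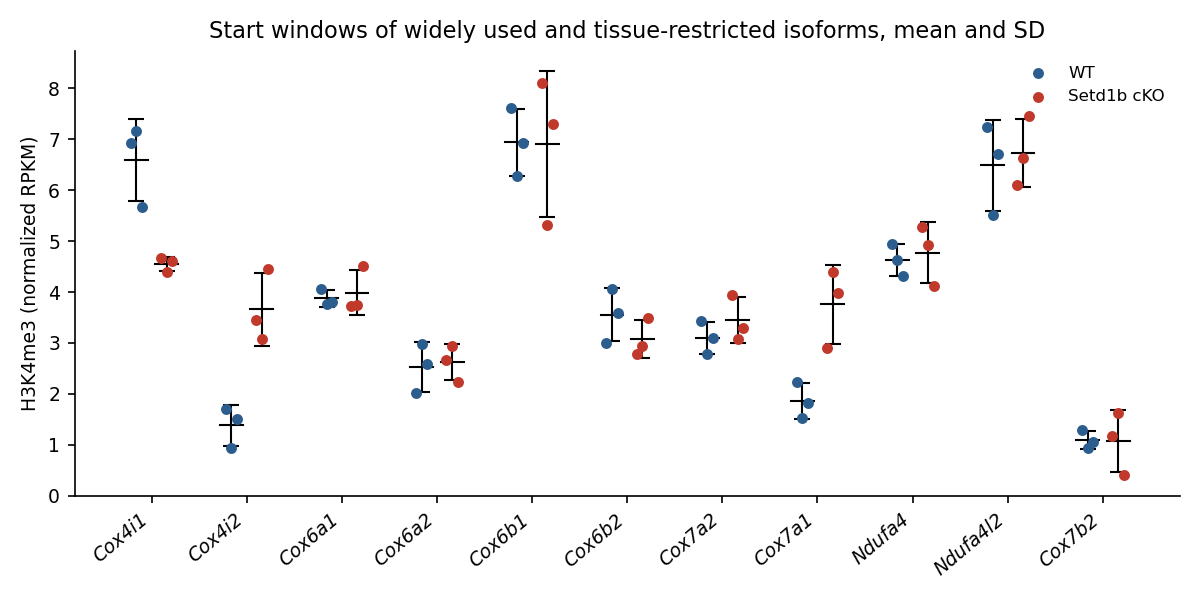
H3K4me3 (y axis, normalized RPKM) at the start windows of widely used and tissue-restricted isoforms in WT (blue) and *Setd1b* cKO (red); each point is 1 library, with the mean and SD of 3. *Cox4i2* and *Cox7a1* are higher and *Cox4i1* lower in every cKO library, and the other 8 genes overlap between the genotypes.

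Complex V makes ATP from the proton gradient. Of its 17 genes 12 were higher in cKO on the authors' scale, with a median difference of +0.673 normalized RPKM (−0.051 on the log2 scale of whole reads). This was the largest median of the complexes on the authors' scale, but on whole reads complex III (0.10) and complex I (−0.029) were above it. None of the 17 was called by limma or edgeR, and 4 were higher and 2 lower at an unadjusted p under 0.05. *Atp5g3*, a gene for the rotating c-ring, had 5.61, 5.98 and 5.86 normalized RPKM in cKO and 3.95, 4.34 and 4.35 in WT. These were separate and tight groups, and the difference was +1.60 ± 0.333 (SE, limma, adjusted p = 0.0554). *Atp5d*, the delta subunit of the central stalk, had 4.11, 5.45 and 5.95 normalized RPKM in cKO and 3.16, 3.76 and 2.52 in WT (adjusted p = 0.0959), in a window without its own start that holds a start of *Midn*. At its own start *Atp5d* had 2.46 ± 0.839 normalized RPKM in cKO and 2.33 ± 0.187 in WT (SD, n = 3), which overlap. *Atp5b*, the catalytic beta subunit, had 6.91 ± 0.0350 normalized RPKM in cKO and 5.42 ± 0.441 in WT (SD, n = 3, limma, adjusted p = 0.0793), in a window without its own start that holds a start of *Baz2a*. At its own start *Atp5b* had 5.004 ± 0.963 in cKO and 4.62 ± 0.426 in WT (SD, n = 3), which also overlap.

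The other 5 genes of complex V had a lower mean in cKO. *Atp5e*, the epsilon subunit of the central stalk and the highest member of the complex, had 5.998, 5.85 and 5.86 normalized RPKM in cKO and 7.66, 7.36 and 6.92 in WT. Here again the cKO libraries were almost equal and all below WT, by −1.41 ± 0.344 (SE, limma, adjusted p = 0.0843). *Atp5j2*, the f subunit of the membrane part, had 4.50, 2.95 and 3.54 normalized RPKM in cKO and 5.41, 5.22 and 4.71 in WT (adjusted p = 0.153), also without overlap. The pseudogene *Atp5l-ps1*, the lowest of the group, had 1.33 ± 0.485 in cKO and 0.772 ± 0.130 in WT (SD, n = 3).

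**Figure D5:**
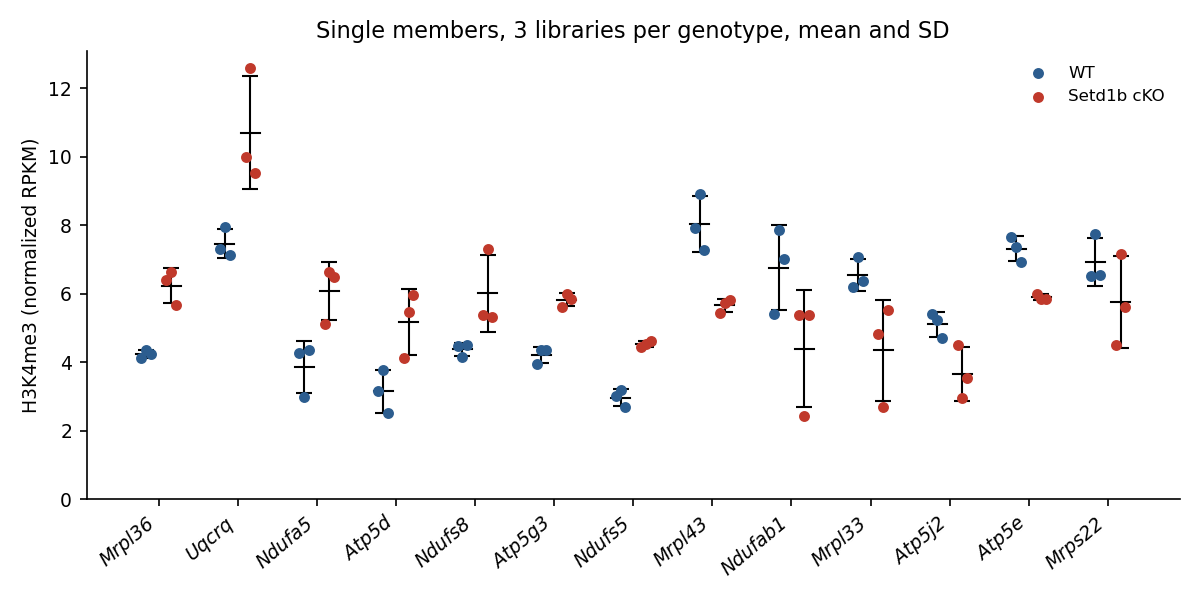
H3K4me3 (y axis, normalized RPKM) of 13 members in WT (blue) and *Setd1b* cKO (red); each point is 1 library, with the mean and SD of 3. *Mrpl36* and *Mrpl43* passed the test, 10 others are separated without passing it, and *Mrps22* overlaps.

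The windows around the members held further called windows. Over 4 windows of 5 kb to either side, oriented by the strand of the gene, the median difference was 0.0801 to 0.267 normalized RPKM. The median level was 4.39 at the member, 3.17 in the first window upstream and 1.87 in the first window downstream. The member window was chosen as the highest with the gene's name, so that lower levels beside it are partly set by this choice. On whole reads the median of the first window downstream was 0.21 on the log2 scale and that of the first window upstream −0.10. From the fourth window upstream to the first, 0, 1, 2 and 1 windows gained and 0, 0, 0 and 2 lost by limma, against 0.563% and 0.454% of all windows. From the first window downstream to the fourth, 1, 0, 5 and 1 gained and 2, 0, 0 and 1 lost. By edgeR on whole reads 1, 1, 2 and 1 gained and 1, 0, 0 and 2 lost in the same order upstream, and 2, 1, 3 and 2 gained and 0, 1, 0 and 2 lost downstream. The called windows include the start windows of *Cox4i2* and *Cox7a2l* and, beside *Ndufs6*, the called window of *Mrpl36* described above. The largest of the called gains in these neighbours was at *Mrps23*, a small subunit gene, in a window 10 kb upstream named for *Cuedc1*, which rose from 2.91 ± 0.582 normalized RPKM in WT to 6.12 ± 0.0714 in cKO (SD, n = 3). The losses include the second window of *Ndufa4l2* described above.

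The other genes of the pathway had no called window. Of 35 genes with a window (7 of complex II and the carriers, 8 of complex IV assembly, 12 of mitochondrial transcription and translation and 8 regulators), none was called by limma or edgeR, and 4 were higher and 6 lower in cKO at an unadjusted p under 0.05. Their median difference was +0.230 normalized RPKM (−0.089 on the log2 scale of whole reads). *Sdha*, the flavoprotein of complex II, had 2.83 in cKO and 4.85 in WT (−2.02 ± 0.431, SE, limma, adjusted p = 0.0597). *Nrf1*, a transcription factor of many respiratory genes, had 5.30 and 6.98 (−1.68 ± 0.388, adjusted p = 0.0735). *Gabpb1*, a subunit of the ETS factor GABP (also called NRF2), had 5.42 and 4.07 (+1.35 ± 0.341, adjusted p = 0.0932).

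Other genes, chosen by name and most of them used in nearly every cell, gave the scale of such differences. The 65 genes of the cytosolic ribosome had a median difference of −0.110 normalized RPKM (−0.20 on the log2 scale of whole reads), 29 of them higher in cKO, none called by limma or edgeR, and 4 higher and 5 lower at an unadjusted p under 0.05. The 37 proteasome genes had a median of +0.256 normalized RPKM (−0.061 on the log2 scale), with 21 higher and 1 lost, the assembly factor *Psmd9* (−2.04 ± 0.318, SE, limma, adjusted p = 0.0275). The median of the mitochondrial genes was thus above that of the cytosolic ribosome and close to that of the proteasome, lists with no test between them.

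Binding motifs of factors known at such genes were counted on both strands of the RefSeq promoters of 300 bases, which matched 124 of the 147 members. The ETS motif CCGGAAG was in 28.2% of the members' and 12.9% of the 17492 protein-coding genes' promoters. The motif of YY1, AAGATGGC, was in 16.9% and 3.57%, that of NRF1, GCATGCGC, in 12.9% and 3.94%, and that of ERR, AAGGTCA, in 8.06% and 4.73%. In the printed promoters ETS starts at bases 195 and 239 of *Mrpl43* and base 149 of *Atp5e*, ERR at base 212 of *Mrpl36*, 23 of *Ndufs5* and 199 of *Atp5g3*, and YY1 at base 221 of *Mrpl36*, counted from 1 at the 5′ end and with no motif overlapping another. The median difference was 0.508 normalized RPKM over the 21 members with the YY1 motif and 0.208 over the 103 without, and −0.0615 over the 16 with the NRF1 motif and 0.331 over the 108 without. It was 0.237 over the 35 with the ETS motif and 0.295 over the 89 without, and 0.368 over the 10 with the ERR motif and 0.274 over the 114 without. The motifs were counted in the gene's own promoter, while the differences are those of the windows chosen by level. For 31 of the 147 members such a window holds no start of the gene's own. These are descriptions on the authors' scale with no test.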

How the data were processed

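For H3K4me3 the authors deposited a score per 5 kb window of GRCm38, an RPKM that they adjusted for the enrichment of each library and left on a linear scale (SeqMonk; reads trimmed with Trim Galore 0.4.2, mapped with Bowtie2 2.2.9, mappings of MAPQ under 20 removed). For input they deposited a signal, in which the authors scaled the reads of a window to the library. Each value was a whole number of steps (tolerance 0.001, 100% of values), which gave the whole reads. These are mapped reads, in which duplicates cannot be told from independent fragments.

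Differences were fitted with limma 3.58.1 in R 4.3.3 on the values as deposited in all 544879 windows (3 libraries against 3, moderated test without intensity trend, two-sided, Benjamini-Hochberg adjustment over all windows, adjusted p under 0.05, no covariate), after a test on simulated data. Replicates are pools of oocytes, and p-values measure the spread between these pools. edgeR 4.0.16 (quasi-likelihood, TMM, at least 10 reads over the 6 libraries) was run on the recovered reads. Transcript starts came from GENCODE M21, where 146 members matched by identifier and *Mrpl33* by symbol, and CpGs from the GRCm38 sequence. Summaries were made in Python 3.11.15 with pandas 2.3.3 and figures with matplotlib 3.10.9.

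The members, lists and motifs were chosen with earlier results of these data known. Genes are named with values where a window was called, where a gene had the highest or lowest level of its group, where it belongs to an isoform pair, or where it was among the 5 largest increases or decreases. *Ndufs5*, *Ndufs6*, *Ndufaf1*, *Atp5b*, *Atp5g3*, *Cox7a2l*, *Mrps23*, *Sdha*, *Nrf1*, *Gabpb1*, *Psmd9* and *Foxl2* were named after their values were seen. *Setd1b*, *Gdf9*, *Ndufa3*, *Fshr* and *Col4a1* also have values in the text outside these rules. Of the listed genes, 7 name no window on chromosomes 1 to 19 (*Cox14*, *Cox16*, *Cox20*, *Sco2*, *Twnk*, *Mterf3* and *Bmp15*).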

Additional observations from a re-analysis of the deposited data

How the results depend on the processing

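Of the 147 windows, 1 gained and 1 lost H3K4me3 as reported. The gained window was no longer called, and neither was the lost one, with log2(value + 1), log2(value + 0.1), quantile normalization and edgeR on whole reads with TMM or RLE (0 gained and 0 lost in each; 12, 10, 22, 6 and 6 windows at an unadjusted p under 0.05). Of all windows, both log2 settings called none and quantile normalization 1, so that the zeros of these 3 say nothing particular to the members; edgeR called 5369 gained and 6145 lost with TMM. With an intensity trend the gained member was *Uqcrq* and no longer *Mrpl36*, and the lost one was again *Mrpl43*. Of all windows, 1.57% gained and 2.01% lost with the trend. A mean of at least 1 gave 3 gained windows (*Ndufs5*, *Atp5g3* and *Mrpl36*). Read at the gene start, 2 were lost. Leaving out 1 library gave 0 to 6 gained and 0 to 2 lost: 6 and 2 without cKO replicate 1, and 0 and 0 without any of the other 5. These counts follow those of all windows, which were 9330 gained and 8649 lost without cKO replicate 1, 1275 and 486 without cKO replicate 3, and 0 or 1 without each of the other 4, against 3066 and 2473 as reported. The members gained without cKO replicate 1 were *Ndufa5*, *Ndufs5*, *Uqcrq*, *Atp5d*, *Atp5g3* and *Mrpl36*, and those lost *Atp5j2* and *Mrpl43*. The median difference of the members was 0.139 to 0.392 normalized RPKM with 1 library left out, and on whole reads −0.076 (TMM) and −0.11 (RLE) on the log2 scale; the cause of these changes was not tested. Restricting the count to the 116 members with their own start in the window, or leaving out the pseudogenes, both chosen after seeing the data, kept the counts at 1 and 1.

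The genotypes share replicate numbers 1 and 4, but nothing in the labels says that a number marks a batch. Deviations of same-numbered libraries correlated at 0.319 (replicate 1) and 0.0190 (replicate 4), so that the numbers were not taken as pairs. With a replicate block, 7 windows gained and 2 lost, with a median of 0.274, where 13678 and 19755 of all windows did. The gained windows were those of *Ndufa5*, *Ndufs5*, *Uqcrq*, *Atp5d*, *Atp5g3*, *Mrpl36* and *Mrps23*, and the lost ones those of *Mrpl43* and *Mrps22*. The median member window held 41 to 126 reads.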
